A study of Mus musculus with 12 samples.

Results

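The endocannabinoid system was described here through 10 genes, chosen by name as the receptors, a receptor-binding protein and the synthesis and breakdown enzymes of the system. All 10 were among the 19248 genes measured, each by 1 probe set that carried its symbol alone. They were the receptors Cnr1 and Cnr2, the receptor-binding protein Cnrip1, the synthesis enzymes Dagla, Daglb and Napepld, and the breakdown enzymes Mgll, Abhd6, Abhd12 and Faah.

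RNA came from mouse striatum at 8 weeks of age. This forebrain nucleus is the first to degenerate in Huntington's disease, shortened to HD below. The 12 mice formed 4 groups of 3, which were HD_p62KO (HD transgene and p62 knockout), HD_p62WT (HD transgene and normal p62), NT_p62KO (no HD transgene, p62 knockout) and NT_p62WT (no HD transgene, normal p62). The design sets an HD model with and without p62, the autophagy receptor encoded by Sqstm1, beside mice without the transgene. The sources used here do not name the HD line, the promoter of its transgene or the exons deleted in the knockout.

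Endocannabinoids are lipids that neurons make on demand at the receiving side of a synapse and that act backwards on the sending side. The main one in brain, 2-arachidonoylglycerol (2-AG), is made by diacylglycerol lipases and cleaved by monoacylglycerol lipase and other hydrolases, whereas anandamide is cleaved by fatty acid amide hydrolase. Both activate the CB1 receptor, which in the striatum is abundant on projection neurons and their axon endings and dampens transmitter release. Early loss of CB1 is a known feature of HD striatum.

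Values were log2 expression values per probe set, normalized between arrays by the authors. Sqstm1 lay between 8.92 and 9.13 in HD_p62KO, 11.26 and 11.75 in HD_p62WT, 8.44 and 8.52 in NT_p62KO, and 11.19 and 11.35 in NT_p62WT, so each mouse labelled as a knockout had the lower level. Genes defining striatal projection neurons were present as bright signals, with a list mean of 17 genes between 10.28 and 11.09 in the 12 mice. The SD of all log2 values within an array lay between 1.661 and 1.728 in HD_p62KO, 1.643 and 1.713 in HD_p62WT, 1.585 and 1.67 in NT_p62KO, and 1.647 and 1.662 in NT_p62WT. The HD groups thus reached a higher spread than the NT groups, but overlapped them at each p62 genotype. For the 10 genes, values with this spread as a covariate are given where they change a call. They are not given for the other genes named below, although over all genes the covariate cut the mean HD count from 6728 to 2541. The mean of 9 choroid plexus genes, tissue that borders the striatum, varied widely within the HD groups. It lay between 7.09 and 9.30 in HD_p62KO and between 7.09 and 8.56 in HD_p62WT. The NT groups were narrower and did not overlap, at 8.39 to 8.63 in NT_p62KO and 7.16 to 7.60 in NT_p62WT. In NT mice choroid plexus RNA thus went with p62 genotype, and their parts cannot be told apart there. Precision is limited by the number of arrays, which is 3 in each group.

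Among the 10 genes, HD mice had much less Cnr1 RNA, less Dagla RNA and slightly more Cnrip1, Faah and Abhd12 RNA than non-transgenic (NT) mice. Averaged over both p62 genotypes, Cnr1 stood at 42.8% of its NT level and Dagla at 78.3%, whereas Cnrip1, Faah and Abhd12 stood at 121%, 116% and 114%. The other 5 genes did not pass the test. The rises of Faah and Abhd12 were less firm than the falls: each passed in only 4 of 12 fits without 1 mouse. Cnrip1, Cnr1 and Dagla passed in all 12. With array spread as a covariate, Faah, Abhd12 and Cnrip1 did not pass. No gene of the 10 differed past the test between p62 knockout mice and mice with normal p62.

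In that average, 3 of the 10 genes rose, 2 fell and 5 did not pass (limma, Benjamini-Hochberg adjusted p below 0.05 over all genes). Of all genes tested, 35% passed, 19.9% higher and 15% lower, so 5 of 10 is not far from the background. The median log2 difference of the 10 was 0.03, against -0.02 over all genes. The genes thus shared no common direction, and Cnr1 lay far from the other 9, as the histogram of all genes shows.

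**Figure D1:**
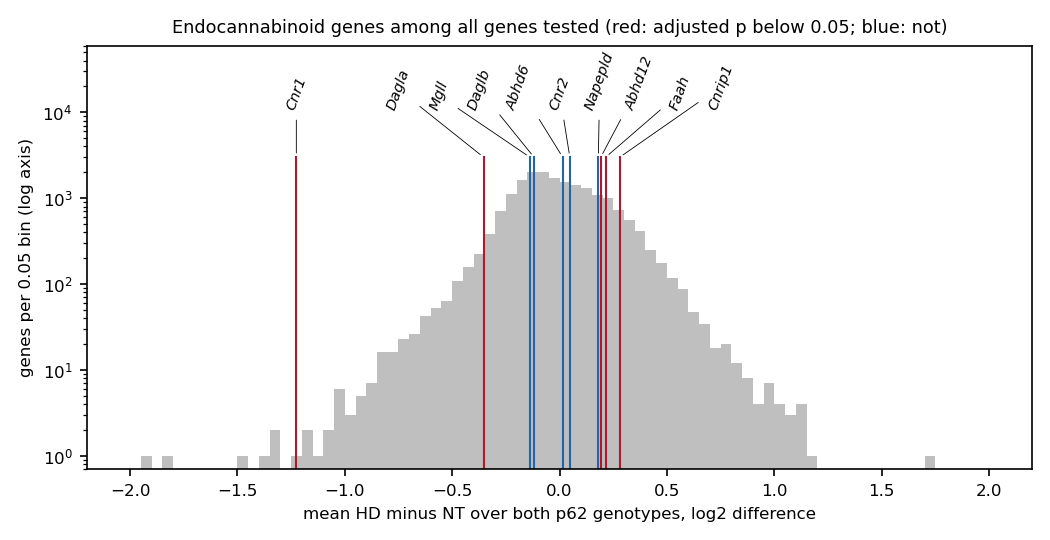
Histogram of the mean HD minus NT log2 difference over both p62 genotypes (x axis) for all 19248 genes, with the number of genes per bin on a log axis. Vertical lines mark the 10 endocannabinoid genes, red where the adjusted p was below 0.05. Cnr1 at -1.23 stands in the far lower tail and the other 9 lie between -0.35 and 0.28.

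Cnr1 encodes CB1, the main cannabinoid receptor of brain. Its log2 values were 9.41, 9.48 and 9.54 in HD_p62KO and 9.60, 9.41 and 9.48 in HD_p62WT, against 10.63, 10.93 and 10.70 in NT_p62KO and 10.72, 10.53 and 10.76 in NT_p62WT. Every HD mouse lay below every NT mouse, with a gap of nearly a whole log2 unit between the highest HD and the lowest NT mouse.

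Without p62, Cnr1 fell by 1.28 in log2 units, which is 2.42-fold (SE 0.093, with n = 3 a group; limma, adjusted p = 2.80e-05), to 41.3% of the NT level. With normal p62 it fell by 1.18 (SE 0.093, 2.26-fold; adjusted p = 0.000131), to 44.3%. Among all genes these were the 10th and the 11th lowest differences. The difference between the 2 HD effects was -0.10 (95% CI -0.39 to 0.19; adjusted p = 0.991), so a change of the HD effect by p62 loss of more than 0.39 in either direction lay outside the interval.

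In order from low to high, mean Cnr1 was 9.48 ± 0.061 in HD_p62KO, 9.50 ± 0.095 in HD_p62WT, 10.67 ± 0.12 in NT_p62WT and 10.75 ± 0.16 in NT_p62KO (SD, n = 3 each). The 2 HD groups overlapped, and so did the 2 NT groups. p62 loss gave a difference of -0.02 in HD mice (95% CI -0.22 to 0.18) and of 0.08 in NT mice (95% CI -0.12 to 0.28). The fall in HD mice passed in all alternatives tried, including each fit without 1 mouse, where the mean HD difference lay between -1.26 and -1.18. An exact permutation of HD status within p62 genotype gave p = 0.005 for Cnr1, Cnrip1 and Dagla alike (two-sided, unadjusted), the smallest that the 400 assignments allow.

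In whole striatum, fewer cells of a type and less RNA per cell cannot be told apart. Markers of the projection neurons moved with Cnr1: in the mean HD comparison 15 of 17 measured genes fell and 2 rose, with a median of -0.60. Of all genes, 15% passed lower in that comparison and 19.9% higher. Their list mean lay between 10.28 and 10.34 in HD_p62KO and between 10.39 and 10.40 in HD_p62WT, against 10.88 to 11.09 in NT_p62KO and 10.81 to 10.98 in NT_p62WT. Scn4b, a sodium channel subunit of these neurons, fell by 1.82 and Pde10a, their phosphodiesterase, fell by 0.85. Interneurons, some of which also carry CB1, had 6 of 11 markers lower and 0 higher, among them Nos1 (-0.47) and the choline transporter Slc5a7 (-0.53). Their list mean lay between 8.05 and 8.19 in HD_p62KO and between 7.88 and 7.97 in HD_p62WT, against 8.28 to 8.48 in NT_p62KO and 8.36 to 8.54 in NT_p62WT. Cck, which marks CB1-rich interneurons of cortex, differed by -0.47 ± 0.21 (SE) and did not pass. The part of these cells in the Cnr1 difference was not tested.

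**Figure D2:**
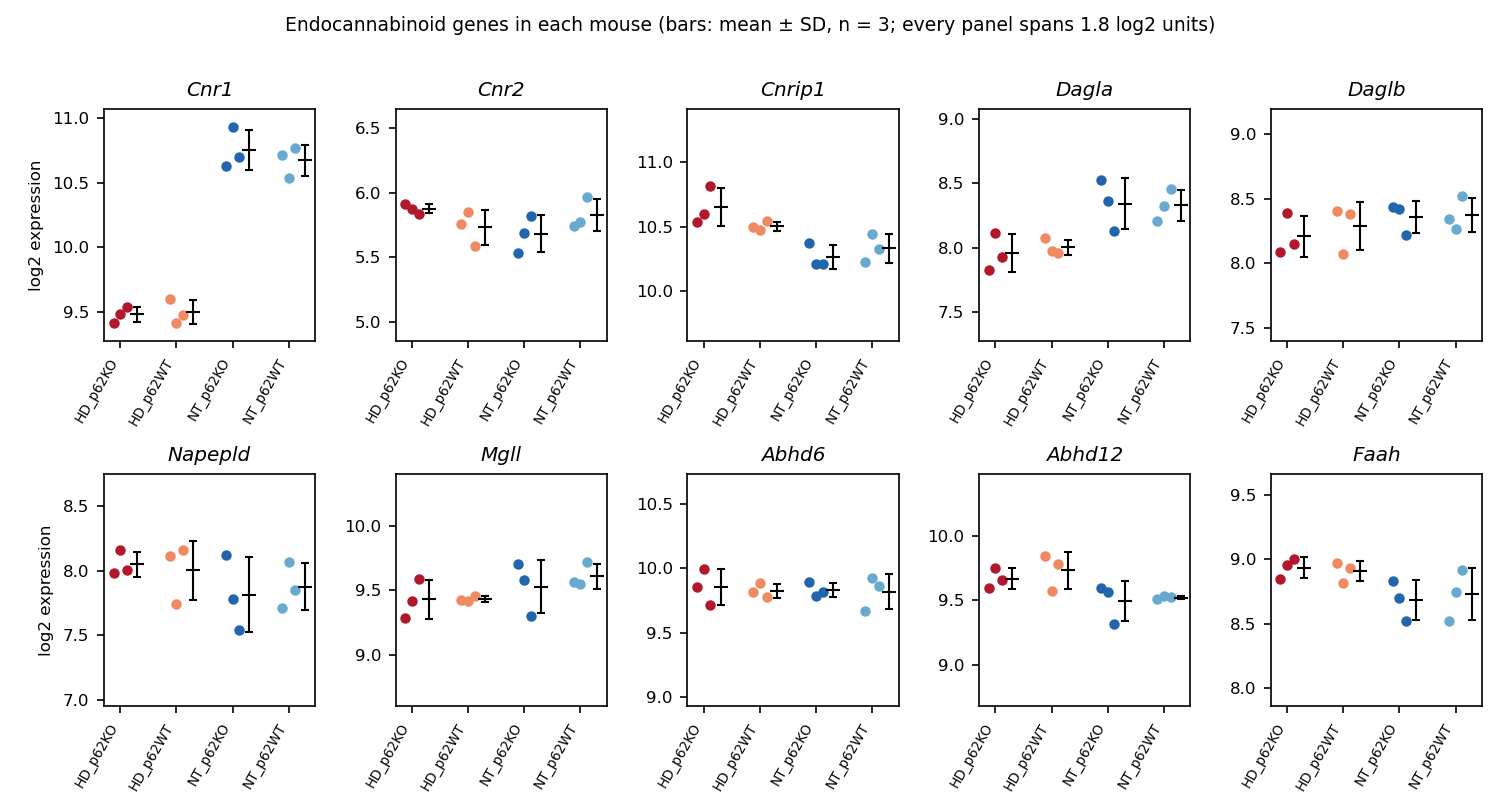
Log2 expression (y axis) of the 10 endocannabinoid genes in each of the 12 mice (points), by group (x axis), with the mean and SD of each group of 3 as bars beside the points. Each panel spans the same number of log2 units, so that the gap between HD and NT mice in Cnr1 can be set against the small differences in the other panels.

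Cnrip1, which binds the tail of the CB1 receptor inside the cell, moved opposite to its partner. Its log2 values were 10.54, 10.60 and 10.82 in HD_p62KO and 10.50, 10.48 and 10.54 in HD_p62WT, against 10.37, 10.21 and 10.21 in NT_p62KO and 10.22, 10.45 and 10.33 in NT_p62WT. Every HD mouse lay above every NT mouse, by a narrow margin between the lowest HD mouse and the highest NT mouse.

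Averaged over both p62 genotypes, Cnrip1 rose by 0.28 ± 0.062 (SE, with limma adjusted p = 0.0055). That rise passed without any 1 mouse (adjusted p = 0.0044 to 0.0165). In mice without p62 the rise was 0.39 ± 0.087 (SE; adjusted p = 0.0125). With p62 present the HD difference came to 0.17 ± 0.087 (SE; adjusted p = 0.24), and the difference between the HD effects was 0.22 (95% CI -0.05 to 0.48; adjusted p = 0.991). When array spread was a covariate, the mean difference was 0.22 (adjusted p = 0.0817) and that without p62 was 0.31 (adjusted p = 0.121). The call without p62 was also lost without the 3 arrays of smallest spread (adjusted p = 0.0531) and without HD_p62KO replicate 3 (0.0501).

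Promoter windows from RefSeq are shown for the receptor and its binding protein because they moved in opposite directions. Each is 250 bases upstream of the first start that the table lists for the gene, on build GRCm38.p6 and on the plus strand, 5′ to 3′, with capitals marking GC boxes (GGGCGG on either strand). The Cnr1 window (chr4:33924014-33924263) lies inside the span of the RefSeq gene, which holds an earlier start.
Cnr1: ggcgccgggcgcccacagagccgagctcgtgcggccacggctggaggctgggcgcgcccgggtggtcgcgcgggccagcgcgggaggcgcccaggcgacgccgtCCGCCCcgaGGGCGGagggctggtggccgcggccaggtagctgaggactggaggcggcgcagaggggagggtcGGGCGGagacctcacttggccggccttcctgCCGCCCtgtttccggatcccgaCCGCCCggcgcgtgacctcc
Cnrip1 (chr11:17051609-17051858): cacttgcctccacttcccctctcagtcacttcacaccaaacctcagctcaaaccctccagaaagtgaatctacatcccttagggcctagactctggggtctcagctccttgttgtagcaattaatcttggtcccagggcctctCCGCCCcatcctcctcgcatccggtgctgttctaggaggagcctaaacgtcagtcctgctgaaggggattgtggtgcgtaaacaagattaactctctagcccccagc

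The Cnr1 window held 5 GC boxes and the Cnrip1 window 1. GC boxes were present in 32.7% of 32851 windows of the same length, and 1.93% held at least 5. The Cnr1 window was 79.2% G and C, more than 98.4% of windows, and the Cnrip1 window 54%, where the median was 52.4%. Of 13 windows from the 8 genes in the table, 5 windows from 5 genes (Cnr1, Cnrip1, Mgll, Abhd6 and Faah) held a GC box. A TATA box (TATAAA, in 12.4% of all windows) and a cAMP response element (TGACGTCA, in 1.55%) were found in 0 of the 13. A CCAAT box (CCAAT, in 33.9%) was in 1 window each of Cnr2 and Abhd6, and an EGR motif (GCGNGGGCG, in 4.7%) in 1 window of Mgll, where it overlapped no GC box. All motifs were searched on both strands, and the matches describe letters only. Dagla and Abhd12 were the other 2 genes.

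Cnr2 encodes CB2, the cannabinoid receptor of immune cells. Its probe set was dim, at the 11.4th percentile of mean brightness, and without detection calls it could not be said to lie above background. Its values ranged from 5.84 to 5.91 in HD_p62KO and from 5.59 to 5.85 in HD_p62WT, against 5.53 to 5.82 in NT_p62KO and 5.74 to 5.97 in NT_p62WT. The HD groups were thus not set apart from the NT groups in a common way.

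The HD difference of Cnr2 was 0.19 without p62 (95% CI -0.01 to 0.40; limma, adjusted p = 0.152) and -0.10 with normal p62 (95% CI -0.30 to 0.11; adjusted p = 0.554). The difference between the HD effects was 0.29 (95% CI -0.0023 to 0.58), with an unadjusted p of 0.0516 and an adjusted p of 0.991. After quantile normalization the HD difference without p62 was 0.30 (adjusted p = 0.0214), and with array weights 0.27 (adjusted p = 0.0294). Of 10 microglia markers 1 rose in the mean HD comparison and 0 fell, with a median of 0.08, where 35% of all genes passed. Their list mean lay between 8.67 and 8.84 in HD_p62KO and between 8.75 and 8.82 in HD_p62WT, against 8.66 to 8.71 in NT_p62KO and 8.66 to 8.82 in NT_p62WT. The marker that rose was Ctss (0.33), a lysosomal protease. The part of microglia in the Cnr2 values was not tested.

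Of the enzymes that make endocannabinoids, Dagla was lower in HD mice. It encodes the diacylglycerol lipase that makes most 2-AG in adult brain and sits at synapses of projection neurons. Its log2 values were 7.83, 8.12 and 7.93 in HD_p62KO and 8.07, 7.97 and 7.96 in HD_p62WT, against 8.52, 8.37 and 8.13 in NT_p62KO and 8.21, 8.33 and 8.45 in NT_p62WT. All HD mice lay below all NT mice, but HD_p62KO replicate 2 and NT_p62KO replicate 3 nearly met. The 3 genes whose 6 HD and 6 NT mice did not overlap were Cnr1, Cnrip1 and Dagla, where 16.2% of all genes showed no overlap.

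Dagla fell by 0.35 in the mean HD comparison (SE 0.076, 1.28-fold; limma, adjusted p = 0.00472) and passed without any 1 mouse (adjusted p = 0.00212 to 0.0141). In mice without p62 it fell by 0.38 (SE 0.11; adjusted p = 0.0274), and in mice with normal p62 it differed by -0.33 ± 0.11 (SE; adjusted p = 0.0841). The call without p62 was lost without HD_p62KO replicate 1 or 3 or NT_p62KO replicate 1 or 2 (adjusted p = 0.0637, 0.0824, 0.0877 and 0.0544) and when the 2 groups alone were fitted (0.0768). With normal p62 the gene passed after quantile normalization, with array weights, with array spread as a covariate, without genes below the 50th percentile of brightness and without NT_p62KO replicate 3 (adjusted p = 0.0241 to 0.0447). The difference between the HD effects was -0.06 (95% CI -0.39 to 0.27).

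Daglb, the second diacylglycerol lipase, did not pass. Its values ranged from 8.08 to 8.39 in HD_p62KO and from 8.07 to 8.40 in HD_p62WT, against 8.22 to 8.43 in NT_p62KO and 8.26 to 8.52 in NT_p62WT. The groups overlapped, and the mean HD difference was -0.12 (95% CI -0.29 to 0.06). When array spread was a covariate it was -0.28 (adjusted p = 0.036), the 1 alternative under which the gene passed.

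Napepld, the phospholipase that releases anandamide from its membrane precursor, did not pass either. Its values ranged from 7.98 to 8.16 in HD_p62KO and from 7.74 to 8.16 in HD_p62WT, against 7.54 to 8.12 in NT_p62KO and 7.71 to 8.07 in NT_p62WT. It had the widest residual spread of the 10 genes (SD 0.21), and its mean HD difference was 0.18 (95% CI -0.05 to 0.41). With array spread as a covariate that value was -0.04.

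**Figure D3:**
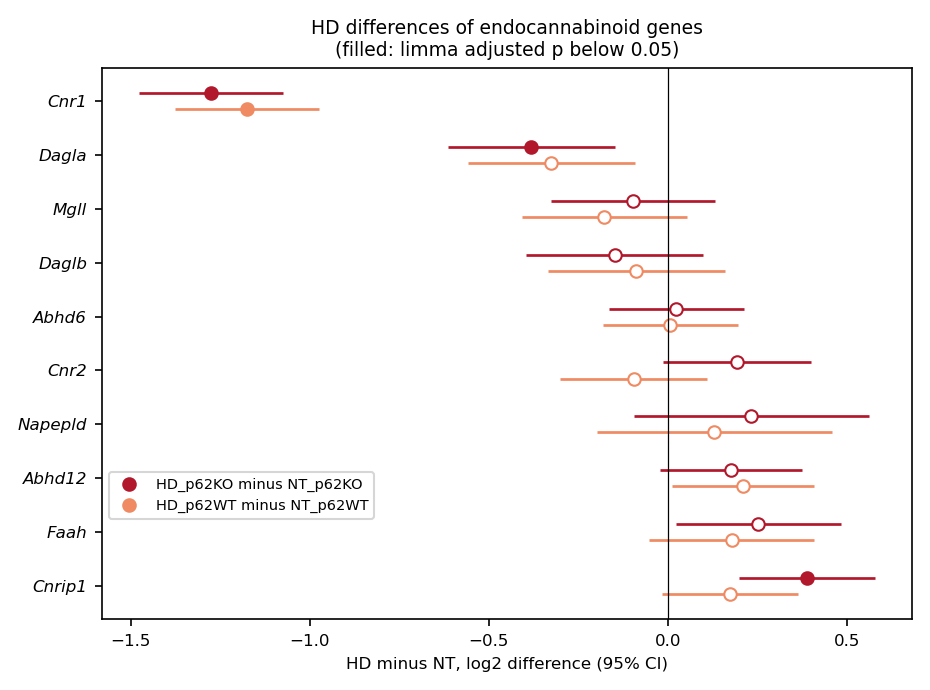
Log2 difference between HD and NT mice (x axis) of each endocannabinoid gene, without p62 (dark) and with normal p62 (light), with 95% confidence intervals. Filled points passed at an adjusted p below 0.05. Cnr1 is filled in both, Dagla and Cnrip1 are filled without p62, and the paired intervals overlap for each gene.

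Of the 4 enzymes that break down endocannabinoids, 2 rose and 0 fell in the mean HD comparison. Of all genes, 19.9% passed higher there and 15% lower. Mgll, the monoacylglycerol lipase that ends most 2-AG signalling, had values from 9.28 to 9.59 in HD_p62KO and from 9.41 to 9.46 in HD_p62WT, against 9.30 to 9.70 in NT_p62KO and 9.55 to 9.72 in NT_p62WT. The groups overlapped without p62 and did not with normal p62, as for 33.1% of all genes. The mean HD difference was -0.14 (95% CI -0.30 to 0.02; limma, adjusted p = 0.161). Mgll passed after quantile normalization (-0.19; adjusted p = 0.0376), with array weights (-0.16; 0.0479) and without NT_p62KO replicate 3 (-0.19; 0.0414).

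Abhd6, a hydrolase that cleaves 2-AG where it is made, was the gene with the smallest HD difference, 0.01 in the mean comparison (95% CI -0.12 to 0.15). Its values ranged from 9.72 to 9.99 in HD_p62KO and from 9.77 to 9.88 in HD_p62WT, against 9.79 to 9.89 in NT_p62KO and 9.67 to 9.93 in NT_p62WT.

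Abhd12, a hydrolase of lysophosphatidylserine that also cleaves some 2-AG, was slightly higher in HD mice. Its log2 values were 9.59, 9.75 and 9.66 in HD_p62KO and 9.84, 9.57 and 9.78 in HD_p62WT, against 9.60, 9.57 and 9.32 in NT_p62KO and 9.51, 9.53 and 9.52 in NT_p62WT. HD and NT mice overlapped at the NT_p62KO group. The gene rose by 0.19 ± 0.064 in the mean comparison (SE; limma, adjusted p = 0.0369). The call was lost with equal array medians (adjusted p = 0.0502), when array spread was a covariate (0.04; adjusted p = 0.601) and without HD_p62KO replicate 2 or 3, HD_p62WT replicate 1 or 3, NT_p62KO replicate 3 or any 1 NT_p62WT mouse (adjusted p = 0.0578 to 0.0917). Within 1 p62 genotype it did not pass (0.17 without p62, adjusted p = 0.175, and 0.21 with normal p62, adjusted p = 0.173), but with array weights it passed with normal p62 (0.25; adjusted p = 0.0209).

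Faah, fatty acid amide hydrolase, the main enzyme that inactivates anandamide, was also slightly higher. Its log2 values were 8.85, 8.95 and 9.0 in HD_p62KO and 8.97, 8.82 and 8.93 in HD_p62WT, against 8.83, 8.70 and 8.52 in NT_p62KO and 8.52, 8.75 and 8.92 in NT_p62WT. The groups did not overlap without p62, as for 39.4% of all genes, and overlapped with normal p62. Faah rose by 0.21 ± 0.075 in the mean comparison (SE; limma, adjusted p = 0.0426). The call was lost after quantile normalization (adjusted p = 0.114), with equal array medians (0.0572), when array spread (0.10; adjusted p = 0.499) or the choroid plexus mean (0.0568) was a covariate, when the 3 arrays of smallest spread were left out (0.113) and without HD_p62KO replicate 2 or 3, HD_p62WT replicate 1 or 3, NT_p62KO replicate 2 or 3 or NT_p62WT replicate 1 or 2 (0.0587 to 0.0968). Within 1 p62 genotype it did not pass (0.25 without p62, adjusted p = 0.102, and 0.18 with normal p62, adjusted p = 0.317).

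Counted by comparison, 1 of the 10 genes rose (Cnrip1) and 2 fell (Cnr1 and Dagla) in HD mice without p62, where 21.7% of all genes passed, 13.3% higher and 8.34% lower. In HD mice with normal p62, 1 fell (Cnr1) and 0 rose, where 7.1% of all genes passed, 3.85% higher and 3.24% lower. Groups did not overlap for 5 of the 10 genes without p62, where 39.4% of all genes showed no overlap, and for 5 of the 10 with normal p62, where 33.1% did.

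Loss of p62 was set apart in its own comparisons. In HD mice, 0 of the 10 genes passed in limma and 0 had an unadjusted p below 0.05, with differences from -0.08 to 0.15. In NT mice the counts were again 0 and 0, with differences from -0.15 to 0.08. Of all genes, 0.0052% passed in each, which is Sqstm1 itself. For the difference between the HD effects 0 of the 10 genes and 0% of all genes passed, and 0 of the 10 had an unadjusted p below 0.05. The 95% intervals of the 10 genes ran from -0.33 to 0.37 for p62 loss in HD mice and from -0.39 to 0.28 in NT mice, so changes of that size could have gone undetected.

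The 5 genes whose pattern over the 12 mice was most like that of Cnr1 were Gpr139, Abi3bp, Rgs4, Ddit4l and Acvr1c. Likeness was the root mean square difference between log2 values centred on each gene's mean, and it was 0.127, 0.139, 0.141, 0.142 and 0.145 for these genes, where the median over all genes was 0.623. Gpr139 is an orphan G protein-coupled receptor, Rgs4 a brake on G protein signalling, Abi3bp an extracellular matrix protein, Ddit4l an inhibitor of mTORC1 signalling and Acvr1c an activin-type receptor. In the mean HD comparison they fell by 1.34, 1.39, 1.01, 1.06 and 0.96, against a fall of 1.23 for Cnr1. They were chosen for likeness to Cnr1 in these same mice, so falls of similar size follow from the choice.

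Gpr139 ranged from 8.20 to 8.38 in HD_p62KO and from 8.41 to 8.48 in HD_p62WT, against 9.60 to 9.93 in NT_p62KO and 9.51 to 9.67 in NT_p62WT. As with Cnr1, and as the way the gene was chosen favours, every HD mouse lay below every NT mouse. The nearest endocannabinoid gene was Dagla, at rank 520 with a value of 0.458, and the farthest was Cnrip1, at rank 17210 with 0.770. A gene with the same value in every mouse would have had 0.621. After quantile normalization 4 of the 5 genes were again among the 5 most like Cnr1.

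**Figure D4:**
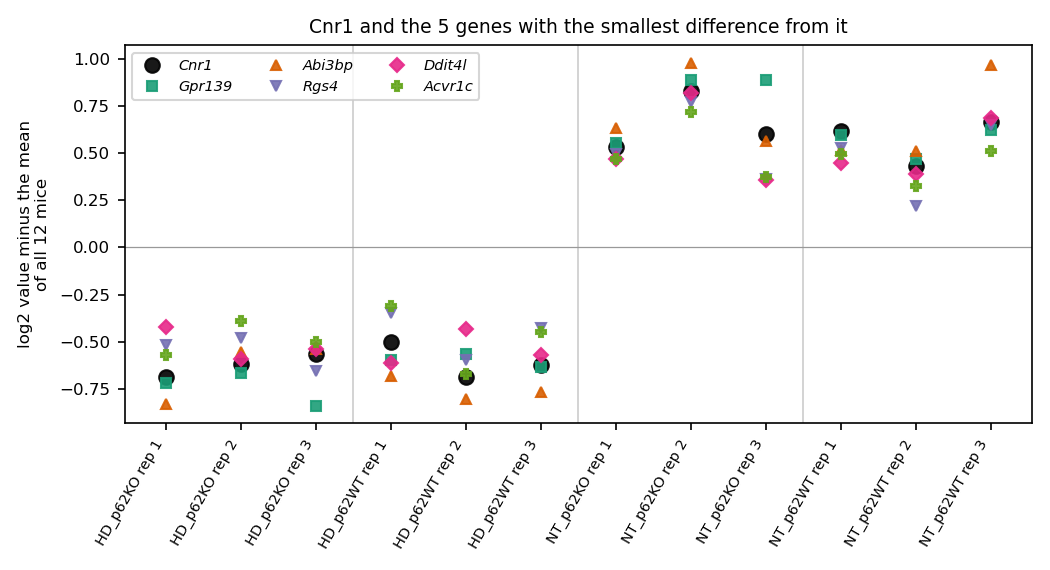
Log2 values minus each gene's mean over all 12 mice (y axis) in each mouse (x axis) for Cnr1 (black circles) and the 5 genes most like it. All 6 genes lie below 0 in the 6 HD mice and above 0 in the 6 NT mice. The 5 genes were chosen for likeness to Cnr1 in these mice, so this split largely follows from the choice.

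Around the 10 genes, RNA of genes whose products trigger or restrain 2-AG synthesis was lower for some and higher for others. 2-AG is made when receptors coupled to Gq, such as the glutamate receptor mGlu5 and the muscarinic receptor M1, activate phospholipase C beta. Of 12 measured genes of either kind, 5 fell, 2 rose and 5 did not pass in the mean HD comparison (median -0.11). Of all genes, 35% passed there, 19.9% higher and 15% lower. The 2 that rose were Gnaq and Gna11, subunits of the Gq family, each by 0.15 (limma, adjusted p = 0.0451 and 0.0339). Homer1, the scaffold that holds mGlu5, fell by 0.72 (SE 0.054; limma, adjusted p = 9.27e-06). Plcb1, a phospholipase C beta, fell by 0.38 (SE 0.068), Chrm1, the M1 receptor, fell by 0.29 (SE 0.054) and Grm5, encoding mGlu5, fell by 0.28 (SE 0.045). All 4 were lower in HD mice. Camk2a, the kinase that restrains Dagla and the brightest gene that did not pass, differed by -0.07 ± 0.06 (SE).

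Homer1 averaged 9.18 ± 0.043 in HD_p62KO and 9.14 ± 0.023 in HD_p62WT, against 9.95 ± 0.12 in NT_p62KO and 9.82 ± 0.098 in NT_p62WT (SD, n = 3 each). Chrm1 averaged 8.92 ± 0.056 in HD_p62KO and 9.03 ± 0.046 in HD_p62WT, against 9.26 ± 0.13 in NT_p62KO and 9.27 ± 0.058 in NT_p62WT. Both lay apart in HD and NT mice with either p62 genotype, as did 39.4% of all genes without p62 and 33.1% with normal p62. With normal p62 Chrm1 did not pass (-0.24; limma, adjusted p = 0.0788). Without p62, 4 of the 12 fell and 1 rose, where 21.7% of all genes passed, and with normal p62, 3 fell and 0 rose, where 7.1% did.

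Genes that carry or limit the CB1 signal moved in both directions. CB1 couples to Gi and Go proteins, which inhibit adenylyl cyclase. Of 15 measured genes, 5 fell, 3 rose and 7 did not pass in the mean HD comparison (median 0.04), where 35% of all genes passed. Rgs4 fell by 1.01 (SE 0.089; limma, adjusted p = 2.30e-05) and Adcy5, the main striatal adenylyl cyclase, fell by 0.81 (SE 0.055; adjusted p = 5.06e-06). Sgip1, a protein that holds CB1 at the cell surface, rose by 0.40 ± 0.084 (SE; adjusted p = 0.0042) and Gnai3, a Gi subunit, rose by 0.35 ± 0.069 (SE; adjusted p = 0.00309). In the mean comparison Cnrip1 and Sgip1, which both bind CB1, were therefore higher in HD mice, in which Cnr1 was lower. With normal p62 neither passed (limma, adjusted p = 0.24 for Cnrip1 and 0.114 for Sgip1). Gnao1, the Go subunit and the brightest gene that did not pass, differed by -0.10 ± 0.05 (SE). Without p62, 2 of the 15 fell and 2 rose, which is near the 21.7% of all genes that passed, and with normal p62, 2 fell and 1 rose, beside 7.1% of all genes.

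Sgip1 averaged 10.37 ± 0.12 in HD_p62KO and 10.27 ± 0.065 in HD_p62WT, against 9.89 ± 0.29 in NT_p62KO and 9.95 ± 0.056 in NT_p62WT (SD, n = 3 each). The spread in NT_p62KO was the widest of the 4 groups.

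Of 23 other enzymes, carriers and targets of these lipids, 6 fell, 3 rose and 14 did not pass in the mean HD comparison (median -0.07). Over all genes 35% passed there, so this count lay near the background. Dgka and Dgkz, kinases that remove the diacylglycerol from which 2-AG is made, went opposite ways: Dgka rose by 0.36 ± 0.053 (SE; limma, adjusted p = 0.000705) and Dgkz fell by 0.31 (SE 0.062; adjusted p = 0.00325). Fabp5, a carrier of anandamide inside cells, fell by 0.26 (SE 0.044; adjusted p = 0.00153) and Trpv1, an ion channel that anandamide opens, fell by 0.32 (SE 0.062; adjusted p = 0.00294). Abhd4, an enzyme of anandamide synthesis and the brightest gene that did not pass, differed by 0.12 ± 0.06 (SE). Without p62, 6 of the 23 fell and 3 rose, against a share of 21.7% over all genes, and with normal p62, 2 fell and 1 rose, against 7.1%. Each of the 3 lists held genes that rose and genes that fell.

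**Figure D5:**
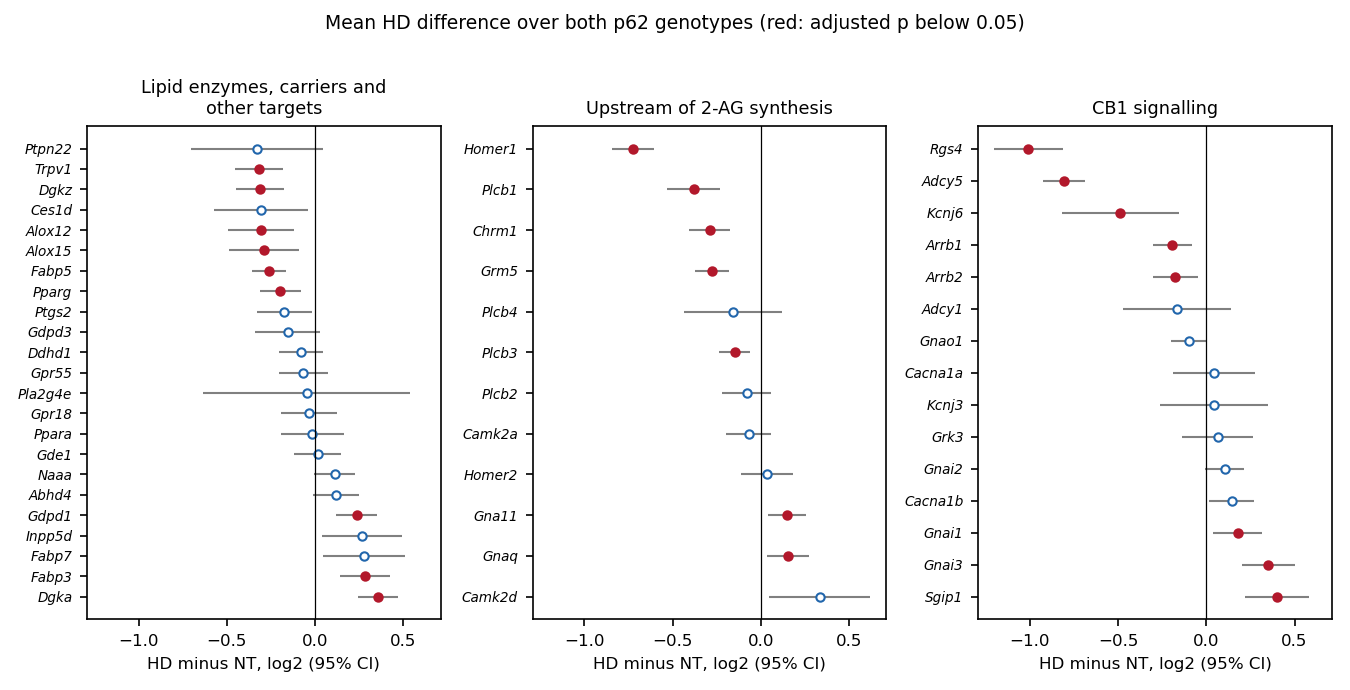
Mean HD minus NT log2 difference over both p62 genotypes with 95% confidence intervals (x axis) for the measured genes around the endocannabinoid system, in 3 lists. Red points passed at an adjusted p below 0.05. Rgs4, Adcy5 and Homer1 lie lowest and Sgip1, Dgka and Gnai3 lie highest among those that passed.

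Markers of other cells were counted in the mean HD comparison, where 35% of all genes passed, 19.9% higher and 15% lower. Of 10 astrocyte markers 3 fell, among them the glutamate transporter Slc1a2 (-0.29), and S100b (0.24) was the 1 that rose. Of 11 oligodendrocyte markers 5 fell, among them Fa2h (-0.45) and Mal (-0.31), while Mbp differed by -0.01. Of 7 endothelial markers Cldn5 (-0.36) was the 1 that fell, and of 10 cortical excitatory neuron markers it was Rspo1 (-0.30). The cortical list mean lay between 7.72 and 8.20 in HD_p62KO and between 7.75 and 7.96 in HD_p62WT, against 7.83 to 8.5 in NT_p62KO and 8.08 to 8.56 in NT_p62WT, so that HD and NT mice overlapped. Among choroid plexus genes Clic6 (0.64) was the 1 that passed and Ttr differed by 0.01. The part of these cells in the results above was not tested, and 4 of the 10 endocannabinoid genes passed once the choroid plexus mean was a covariate, against 5 without it.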

How the data were processed

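Striatal RNA, 100 ng a sample, was hybridised to Affymetrix whole-transcript arrays, as the labels' protocols state. The authors deposited log2 values, 1 for each probe set and array, and RMA is the method named, per the submitters' processing notes; its settings and the genome build are not stated in what was used here. RMA equalises arrays, so it hides any change common to most genes. Detection calls were not used here.

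Titles gave groups and replicate numbers and speak of biological replicates. Each was taken as 1 mouse, so p-values cover the spread between these samples. Of 24055 probe sets, 19942 carried 1 symbol, 1225 several and 2888 none. The brightest probe set stood for a gene, for 19248 genes in all.

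Group means were fitted over the 12 arrays together with limma 3.58.1 in R 4.3.3 (eBayes without trend; residual df 8, prior df 4.14). Benjamini-Hochberg adjustment ran across the 19248 genes of each comparison, at a threshold of 0.05, and intervals are 95%. The mean HD comparison averages the HD effects with and without p62. In simulated data made from the real means and spreads, that comparison recovered 87 of 100 changes of 0.5 and 98 of 100 changes of 1. It made 8 false calls among those of the 19248 genes that were left unchanged. Of 100 changes of 0.5, the HD comparison recovered 62 with normal p62 and 56 without p62. The simulated noise was independent and few genes were changed, whereas 35% of all genes passed in the real mean HD comparison. Changes below 0.5 were not simulated.

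The 10 genes, the lists and the naming rule were chosen with earlier results of these data known. The rule named, from a pathway list, up to 4 genes that passed with the smallest p and the brightest that did not; from a marker list, up to 2 and 1; and the 5 genes most like Cnr1. List genes without a probe set of their own were not used. Alternatives were a replicate block, a further quantile normalization, equal array medians, brightness filters at the 25th and 50th percentile, averaging a gene's probe sets, trended and robust variances, array weights, fits of the 2 groups alone, and leaving out each mouse. Leaving out the 3 arrays of smallest spread (NT_p62KO replicate 3, HD_p62WT replicate 2 and NT_p62WT replicate 1) and covariates for array spread or for the choroid plexus mean were chosen after seeing the data. Promoter windows came from RefSeq (GRCm38.p6).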

Additional observations from a re-analysis of the deposited data

How the results depend on the processing

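Cnr1 fell past the threshold in HD mice with and without p62 and in their mean in all alternatives. The number of the 10 genes that passed was 5 in the mean HD comparison. With array weights it was 6 (Mgll added, lower). It was 3 with a replicate block (Cnr1 and Dagla lower, Cnrip1 higher), 3 with equal array medians (the same 3 genes) and 3 with array spread as a covariate (Cnr1, Dagla and Daglb lower), and between 3 and 5 without 1 mouse, below 5 in 9 of 12 such fits. With normal p62 it was 1 (Cnr1). It was 2 after quantile normalization, 2 without genes below the 50th percentile of brightness and 2 with array spread as a covariate (Cnr1 and Dagla each time), 3 with array weights (also Abhd12), and 1 to 2 without 1 mouse. Without p62 it was 3. It was 4 after quantile normalization and with array weights (Cnr2 added), 2 with array spread as a covariate or without the 3 arrays of smallest spread (Cnr1 and Dagla), 2 with the 2 groups alone (Cnr1 and Cnrip1), and 1 to 3 without 1 mouse, with 1 (Cnr1) without HD_p62KO replicate 3. For p62 loss and the difference of the HD effects it was 0 in all alternatives. Over all genes, the count in the mean HD comparison was 6728, against 2541 with array spread as a covariate. With normal p62 it was 1366, against 709 with a replicate block, 653 when the choroid plexus mean was a covariate, 4625 with array weights, 421 without HD_p62WT replicate 1, 398 without its replicate 3, 441, 845 and 440 when NT_p62WT lost replicate 1, 2 or 3. Without p62 it was 4172, against 6663 with array weights, 1742 with the 2 groups alone, 1790 without the 3 arrays of smallest spread, 843 with array spread as a covariate, and 1273, 1795 and 1876 without HD_p62KO replicates 2 and 3 and NT_p62KO replicate 3. For p62 loss it was 1, and at most 4 in HD or NT mice, and for the difference of the HD effects it was 0 and at most 1. For the other 9 genes, 1229 of 1275 values kept their side of the threshold, 34 no longer passed and 12 newly passed, and 0 that passed changed direction. Cnr2 has no value under the brightness filters, which remove it.

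No sign was seen that the replicate numbers of the titles pair the mice. Deviations of same-numbered mice from their group means correlated between -0.337 and 0.206, and those of mice with other numbers between -0.327 and 0.432. For 0 of 12 mice was the best match in every other group the one with the same number. With the replicate block, Abhd12 and Faah no longer passed in the mean HD comparison (adjusted p = 0.0606 and 0.0697).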

Other observations

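Within each group, 1 mouse held the lowest value for most of the 10 endocannabinoid genes. It was replicate 1 in HD_p62KO (8 of 10 genes), replicate 2 in HD_p62WT (7), replicate 3 in NT_p62KO (6) and replicate 1 in NT_p62WT (7). In each group this was also the array with the smallest SD of all log2 values, 1.661, 1.643, 1.585 and 1.647, although in NT_p62WT another array had 1.648. NT_p62KO replicate 3 was the lowest of all 12 mice for 3 of the genes.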
